A study of Homo sapiens with 2 samples.

Results

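The peaks described here lay on exons of long non-coding RNAs (lncRNAs) in maps of IGF2BP3 binding from OE-19 cells. A peak was kept when it overlapped an exon of a GENCODE 44 lncRNA gene and overlapped neither the span of a protein-coding gene nor a snoRNA, snRNA, miRNA, misc_RNA, scaRNA or ribozyme gene. This left 359 of 21142 peaks (1.70%) in replicate 1 and 377 of 20799 peaks (1.81%) in replicate 2. Before the removals, 1294 and 1571 peaks touched a lncRNA exon, of which 886 and 1131 also touched a protein-coding span and 73 and 92 a small RNA gene. The kept peaks were therefore 27.7% and 24.0% of all peaks on lncRNA exons. They fell on 252 lncRNA genes in replicate 1 and 270 in replicate 2.

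OE-19 is an established line of adenocarcinoma cells from the esophagogastric junction. LACE-seq (linear amplification of cDNA ends and sequencing) was used on cells crosslinked with UV, with IGF2BP3 immunoprecipitated and the bound RNA fragmented with MNase. The 2 samples are replicates of 1 group with no further treatment or genetic change named in the labels, and the labels do not say whether they came from separate cultures. No input, IgG or IGF2BP3-depleted library was analysed here, so every value is relative to the local background of the same library. Library depth is unknown, and the depth of a peak is given as the reads piled up at a peak's summit, recovered from the deposited fold and p-value.

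IGF2BP3 is an oncofetal RNA-binding protein that is known for binding and stabilising mRNAs, many of them carrying m6A, a methylated adenosine within short motifs such as GGAC. LncRNAs are long transcripts without a recognised protein product. Some act in the nucleus, such as NEAT1 and MALAT1, and others in the cytoplasm, such as NORAD. GENCODE also types as lncRNA many transcribed copies of protein-coding genes, whose sequence can be close to that of the parent mRNA.

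The 30 bases around the replicate 1 summit are shown for 9 of the 10 pairs of peaks that ranked highest. The order is by the lower of a pair's 2 within-list percentiles of fold. They are shown because most of these pairs turned out to lie in copies of other RNAs. The rank holds for fold only. By −log10 q, the highest MALAT1 pair (93.1 and 123) exceeded all of the 10 but ENSG00000289901. Each sequence is from hg38, runs 5′ to 3′ on the strand of the lncRNA gene, and has the summit base in capitals. The peaks carry no strand of their own.
ENSG00000289901, chr13:109424355-109424384, minus strand: agagacctgagttgtAaaaaactccagttg
ENSG00000290685, chr9:93335617-93335646, minus strand: cagcccagggggcgcCccgggccagggtcc
LINC02240, chr5:124809088-124809117, plus strand: cagtcttgcggtgaaTcagccctttttagc
ENSG00000291063, chr17:31034487-31034516, plus strand: catgcagtcccacaaCttgtaccagcatcc
LINC01709, chr1:101786627-101786656, plus strand: aggcatgacctcccaTgggtgttcacggga
ENSG00000225339, chr6:34263713-34263742, plus strand: gagggaaagagcgtaGattcaaatataaac
HCG14, chr6:28896373-28896402, plus strand: caagcaatgattctgTgtcgtgcacgcacg
ENSG00000236358, chr1:234357128-234357157, plus strand: tctacttctgccatcTtgccggatcctcag
LIPE-AS1, chr19:42485695-42485724, plus strand: tggttagtctcctgaGccatatttttctgc

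Sequences from 6 well-known or single-copy lncRNAs are shown for contrast. They were chosen after their values were seen. Capitals mark the summit base, or a GGAC within 50 nt of the summit for MALAT1 and LINC00511.
MALAT1, chr11:65500466-65500495, plus strand: tttgatgaagctaGGACtgaggagcaagcg
NEAT1, chr11:65436000-65436029, plus strand: tgggaaggagtgctgTctgcgcctgccctc
NORAD, chr20:36046637-36046666, minus strand: ttagtttttaggaagGcctgtcctctggga
GAS5, chr1:173864409-173864438, minus strand: gatgtaatgattctgCcaaatgaaatataa
LINC00511, chr17:72403818-72403847, minus strand: tcatcaggctctcGGACcttagggctgttg
CHASERR, chr15:92882747-92882776, plus strand: aggccatgttgtgtgGtgtgtggggcgggg

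The lncRNA exon peaks were of ordinary strength for their lists. Their median fold enrichment, the deposited ratio of summit to local background, was 6.62 in replicate 1 and 6.94 in replicate 2, beside 6.89 and 7.13 over all peaks. The lowest and highest folds were 2.52 and 27.5 in replicate 1 and 2.70 and 27.4 in replicate 2. The median number of reads at the summit was 21 in both lists, against 22 over all peaks. Median widths were 329 and 328 bp, and the median −log10 q was 11.7 and 12.2.

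Many of the peaks lay on annotated copies of other genes. A pseudogene of any type was overlapped by 161 of 359 peaks (44.8%, 95% Wilson interval 39.8 to 50) in replicate 1 and by 170 of 377 (45.1%, 40.1 to 50.1) in replicate 2. The share over all peaks was not counted, and the rule's removal of coding spans bears on it. Most of the pseudogenes were transcribed unprocessed pseudogenes, which are duplicated genes that keep introns, with 106 and 126 peaks. Processed pseudogenes, which are mRNA copies put back into the genome, were overlapped by 33 and 30 peaks, and transcribed processed pseudogenes by 13 and 10. The same locus is often entered both as a lncRNA gene and as a pseudogene, as for GTF2IP1 and HERC2P3.

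Repeated sequence was common at these summits. The 31 bases centred on the summit occurred more than once in hg38 for 154 lncRNA exon peaks (42.9%) in replicate 1 and 159 (42.2%) in replicate 2, and the share over all peaks was 9.19% and 8.13%. Among lncRNA exon peaks over a pseudogene the share was 59.6% and 61.2%, and among those over none it was 29.3% and 26.6%. Peaks on processed pseudogenes outside the set had 43.4% and 41%. The part of repeated sequence in the results that follow was not tested.

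Many peaks also shared sequence with mature mRNAs. At least 20% of a peak's 31-mers were found in the transcripts of a single protein-coding gene for 26.2% of the peaks in replicate 1 and 26.8% in replicate 2, and at least 50% for 26 and 33. No 31-mer in any protein-coding transcript was found for 164 (45.7%) and 178 (47.2%). Of the peaks over that 20%, 72 (76.6%) and 78 (77.2%) shared the sequence with a coding gene that had a peak of its own in the same list. How often coding genes in general had a peak was not counted. GTF2I, a transcription factor gene, shared 21.4% to 79.2% with peaks on 1 lncRNA gene, and UBB, a ubiquitin gene, 22.6% to 58.6%. SORD, which encodes sorbitol dehydrogenase, shared up to 98.1%. These matches were exact, made on either strand and not counted over all peaks.

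The strongest pair lay on ENSG00000289901 on chromosome 13. Its fold was 27.5 with 149 reads at the summit in replicate 1 and 27.4 with 152 reads in replicate 2, the highest of the set in both lists. Both summits were at position 109424369, upstream of the annotated gene start, so that only part of each peak was exonic. The peak in the same list that shared most of its 31-mers, 37.9%, was on MT-RNR1, the 12S ribosomal RNA of the mitochondrial genome. It was the only lncRNA exon peak of either list whose closest partner was mitochondrial.

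Copies of ribosomal protein genes followed. In 6 of the 10 highest pairs, the coding gene sharing most 31-mers encoded a ribosomal protein. LINC02240 had folds of 20 and 19.7 with 56 and 50 reads, over an opposite-strand pseudogene sharing 19.7% of 31-mers with RPL28. LINC01709 had 14.8 and 17.5 with 51 and 68 reads over RPSAP19, and shared 48.7% with RPSA. ENSG00000225339 had 16.8 and 15.7 with 37 and 36 reads over RPL35P2, and shared 23.5% with RPL35. In each of these the pair differed little beside the distance from the median of 6.62 and 6.94.

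The others of this kind were close in strength. ENSG00000291063 had folds of 16.9 and 16.6 with 69 and 44 reads and overlapped no annotated pseudogene, but 34.8% of its 31-mers were those of RPL41. ENSG00000253238 on chromosome 8 had 16.2 and 16.8 over RPL13AP18, but shared only 8.35% with RPL13A. The 31 bases at the summit were single-copy in both lists for LINC02240, ENSG00000225339 and ENSG00000253238. ENSG00000236358 had 14.5 and 15.8 over an opposite-strand pseudogene sharing 21.8% with RPS15. The pseudogene lay on the strand opposite to the lncRNA gene in 5 of these 6 pairs and in the sixth none was annotated, and the peaks do not say which strand was bound.

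The remaining pairs of the 10 were of other origins. ENSG00000290685 had folds of 18.9 and 19.8 with 90 and 94 reads over FAM120A2P on the same strand, and 36.3% of its 31-mers were those of FAM120A, which encodes an RNA-binding protein. LIPE-AS1 had 16.2 and 14.6, with both summits in an intron and over an opposite-strand pseudogene, and shared 42.2% of 31-mers with ZFAND5. HCG14 had 14.6 and 17.6 with 32 and 44 reads, upstream of its annotated start, and shared nothing with a coding transcript. Of the 10 pairs, 7 overlapped a pseudogene, as did 33 of the 50 highest and 98 of all 190 pairs. Both summits lay inside a lncRNA exon in 5 of the 10. Counted by peak over the whole set, 69.4% of summits in replicate 1 and 67.6% in replicate 2 lay in one. These differences were not tested.

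Peaks over a pseudogene named for a ribosomal protein, a group picked after these values were seen, numbered 8 in each list. Their median fold was 13 in replicate 1 and 13.5 in replicate 2, the lowest 6.13 and 6.92 and the highest 16.8 and 19.5. Their local background was low, with a median of 1.04 and 1.01 reads. All 8 overlapped a peak of the other list in both directions, beside 60.1% and 61.2% of all peaks. The group includes LINC01709, ENSG00000225339 and ENSG00000253238, which were ranked above as overlapping pairs of high fold. Its recurrence and fold are therefore partly set by the choice.

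Some well-known lncRNAs had the opposite combination of many reads and low fold. NEAT1 (the scaffold of nuclear paraspeckles), MALAT1 (a nuclear speckle RNA), NORAD (which binds Pumilio proteins) and GAS5 (a snoRNA host gene tied to growth arrest) together held 18 peaks in replicate 1 and 13 in replicate 2. The median number of reads at their summits was 87.5 and 82.0, with 51 to 223 in replicate 1 and 65 to 234 in replicate 2. Their median fold was only 3.52 and 3.84, over a median local background of 22.2 and 18.6 reads. Over all lncRNA exon peaks that background was 1.96 and 1.65 reads. These genes were chosen with their values known.

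**Figure D1:**
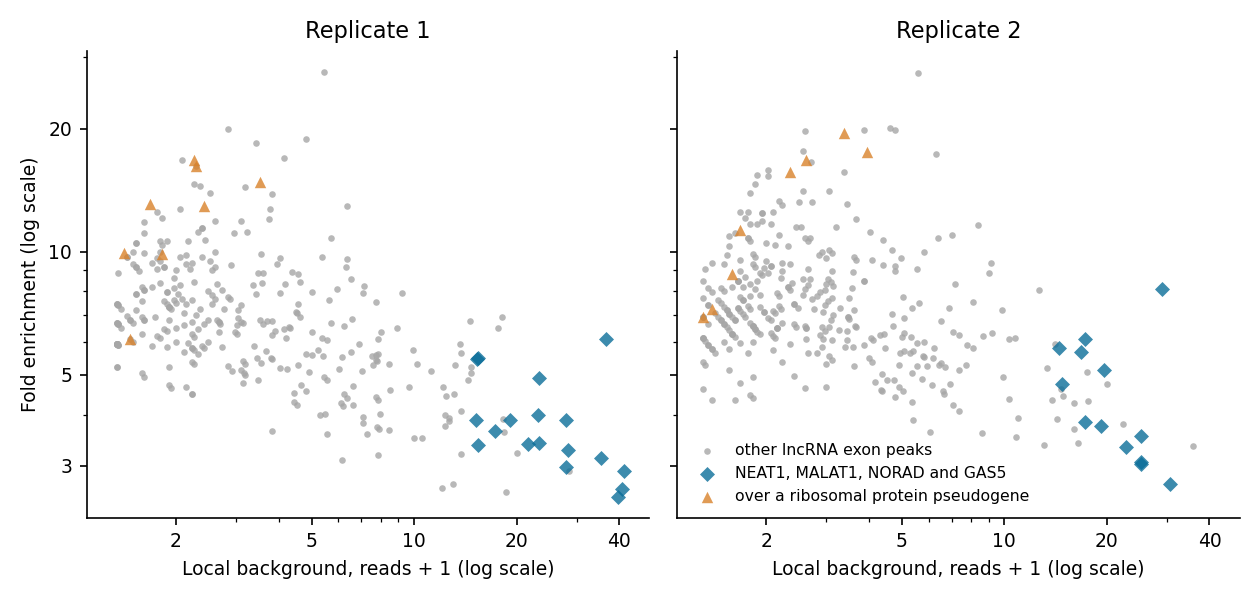
Fold enrichment (log scale) of each lncRNA exon peak against its local background in reads plus 1 (log scale), one panel per replicate. The NEAT1, MALAT1, NORAD and GAS5 peaks (diamonds) sit at the right with median folds of 3.52 and 3.84, and the 8 peaks over ribosomal protein pseudogenes in each list (triangles) at the left with 13 and 13.5; fold is itself computed from the background.

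MALAT1 carried the most heavily covered peak of the set. It spanned chr11:65500158-65500750 in replicate 1, with 223 reads and a fold of 6.13, and chr11:65500153-65500717 in replicate 2, with 234 reads and a fold of 8.10. The GGAC printed above lies 16 nt before the replicate 1 summit. The peaks with replicate 1 summits 6985 and 7824 bases from the gene start also recurred, with folds of 2.52 and 2.70 and of 3.13 and 3.07. A peak with fold 2.91 in replicate 1 and one with fold 3.54 in replicate 2 had no partner in the set. TALAM1 is annotated on the other strand here, so the strand of these reads cannot be told.

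NEAT1 had the most peaks of any gene, 7 in replicate 1 and 4 in replicate 2. Its site at chr11:65435761-65436194 recurred with summits 2 bp apart, at folds of 3.28 and 5.14 and with 92 and 100 reads. The other replicate 1 peaks had folds from 2.63 to 3.87 and the other replicate 2 peaks from 3.02 to 3.74. Counting partners outside the set too, 4 of the 7 replicate 1 peaks and 2 of the 4 replicate 2 peaks overlapped a peak of the other list, although each had 62 or more reads at its summit.

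NORAD and GAS5 repeated more of their sites. NORAD had 3 peaks in replicate 1 and 2 in replicate 2, and the summits of its strongest replicate 1 site were 1 bp apart, at folds of 4.91 and 4.74. Its other pair had folds of 3.99 and 5.80 with summits 402 bp apart. GAS5 had 4 peaks and 3, and 3 pairs. Their folds were 5.48 and 6.13, 5.51 and 5.70, and 3.37 and 3.84, with summits 3, 2 and 29 bp apart.

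**Figure D2:**
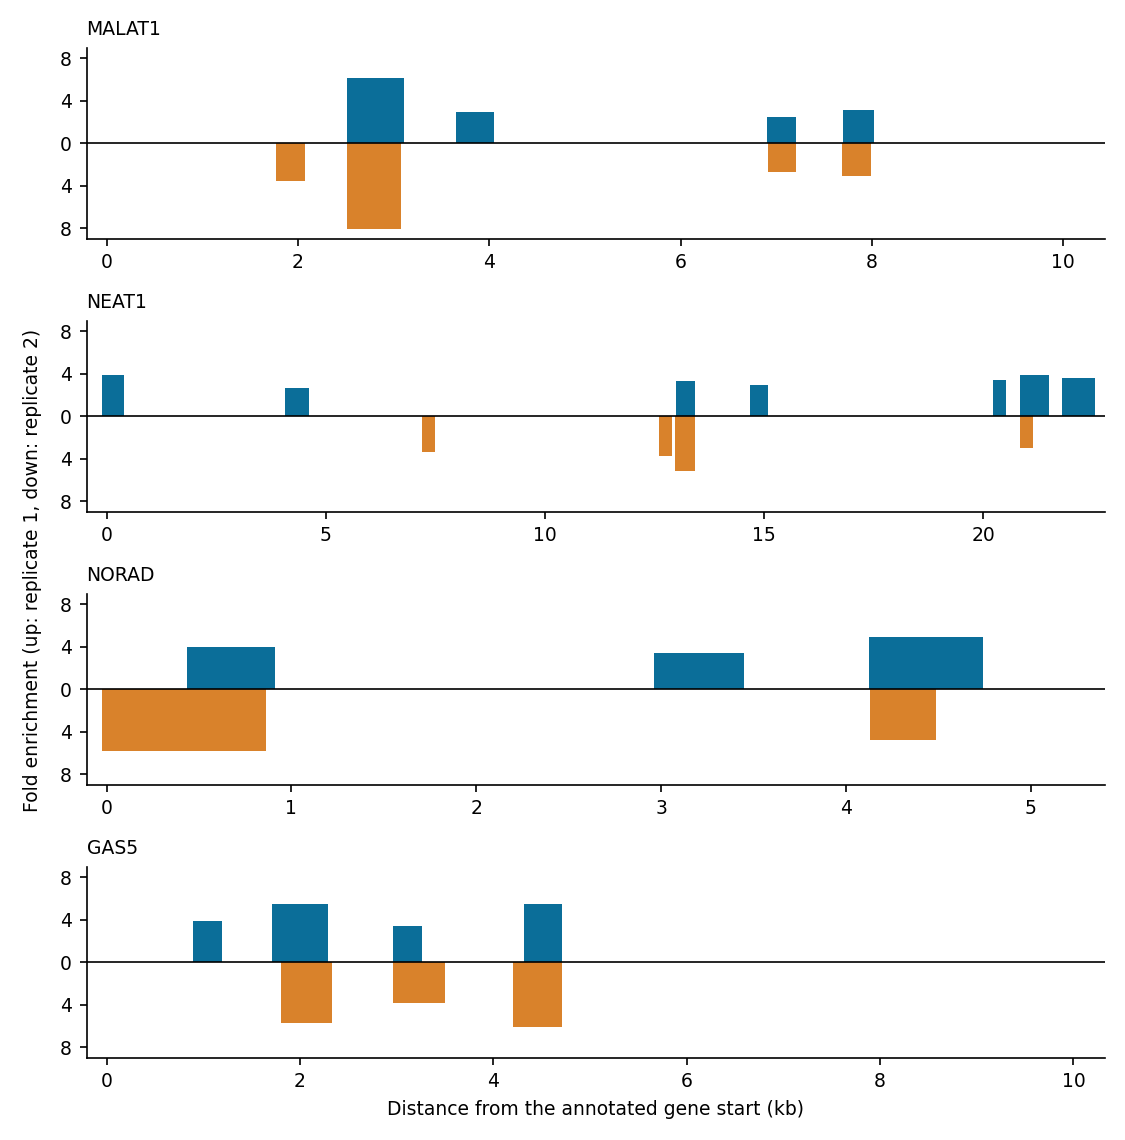
Peaks of the set along MALAT1, NEAT1, NORAD and GAS5, drawn to scale by distance from the annotated gene start in kb along the gene's strand; bar height is fold enrichment, upward for replicate 1 and downward for replicate 2. MALAT1's tallest bars, 6.13 and 8.10, face each other, while most NEAT1 bars have no counterpart in the set in the other list.

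Besides NEAT1 and MALAT1, the genes with the most peaks over both lists were mostly copies of coding genes. Of the 8 genes with 8 or more peaks, 5 had peaks over a pseudogene, as did 3 of the 6 genes that followed with 7 peaks each. GTF2IP1, a copy of GTF2I on chromosome 7, had 6 and 4 peaks and 4 pairs, from 4.07 to 9.64 fold in replicate 1 and 6.31 to 11.5 in replicate 2. HERC2P3, a copy of the ubiquitin ligase gene HERC2 on chromosome 15, had 4 and 5 peaks and 4 pairs, with folds of 5.52 to 8.10 and 4.49 to 11.7. SDHAP1, a copy of the succinate dehydrogenase gene SDHA, had 2 and 6 peaks. ENSG00000291073 (over SMG1P3 and SLC7A5P2) and MFSD14CP had 8 in total each. The 6 genes with 7 were ANAPC1P2, ARHGAP27P1-BPTFP1-KPNA2P3 and ENSG00000291175, with peaks over a pseudogene, and GAS5, LINC02331 and NUTM2A-AS1, with none.

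LINC00511, a lncRNA described as raised in several carcinomas, was, with NEAT1 and MALAT1, among the 8 genes with 8 or more peaks and had none over a pseudogene. It had 3 peaks in replicate 1 and 5 in replicate 2. Its broadest site, chr17:72403474-72404517 in replicate 1, had 124 reads and a fold of 6.91, and 83 reads and 5.94 in replicate 2. A site near position 72592526 had folds of 4.86 and 8.07. The others, at 2.58 to 5.52, had no partner in the set.

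Recurrence between replicates was as follows. In replicate 1, 202 of 359 lncRNA exon peaks (56.3%, 51.1 to 61.3) overlapped a replicate 2 peak by at least 1 bp, and 60.1% of all replicate 1 peaks did so. In replicate 2 it was 203 of 377 (53.8%, 48.8 to 58.8), and 61.2% of all peaks. Peaks whose summit lay in an exon of a protein-coding gene recurred at 65.4% and 64.9%, with a higher median of 27 and 26 reads. Within the set, peaks over a pseudogene recurred at 61.5% (53.8 to 68.7) and 62.9% (55.5 to 69.8), and those over none at 52.0% (45.1 to 58.9) and 46.4% (39.7 to 53.2). None of these differences was tested.

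Depth moved with recurrence. Of lncRNA exon peaks with 14 or fewer reads at the summit, 34.6% recurred in replicate 1 and 26.1% in replicate 2, against 39.4% and 41.1% of all peaks of that depth. At 15 to 36 reads it was 60.4% and 58.6%, against 59.8% and 61.1% of all peaks. At 37 or more it was 75% and 82.7%, against 82.2% and 83.3% of all peaks. The thinnest peaks over no pseudogene recurred least, at 15 of 54 (27.8%, 17.6 to 40.9) and 12 of 71 (16.9%, 9.94 to 27.3).

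**Figure D3:**
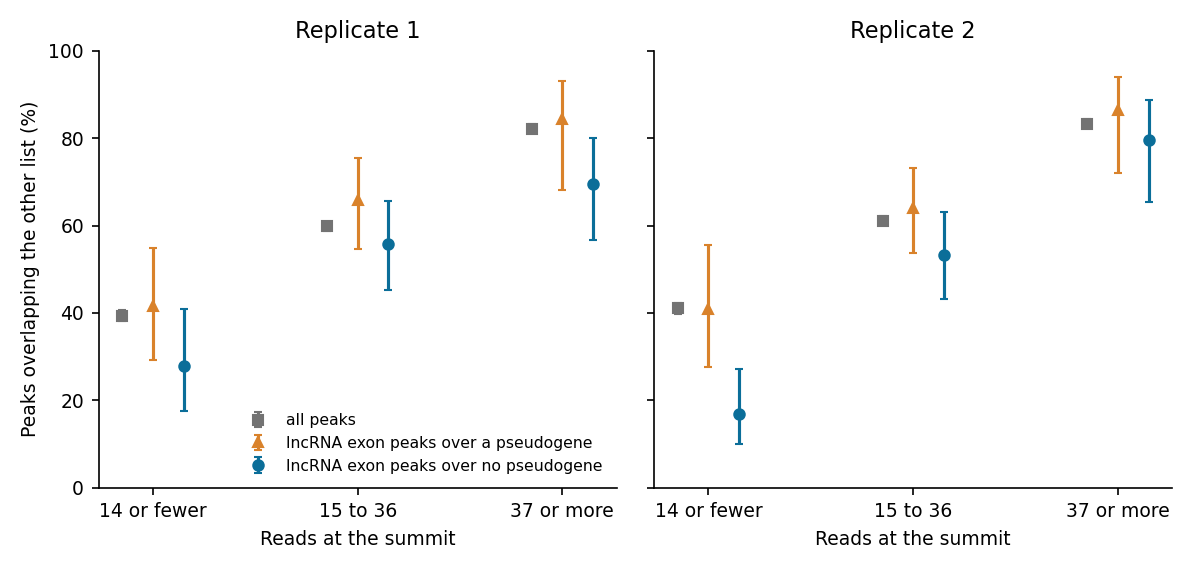
Share of peaks overlapping the other list (percent) by reads at the summit, for all peaks and for lncRNA exon peaks over a pseudogene and over none, one panel per replicate. Points are shares and bars 95% Wilson intervals, which cover counting error only; shares rise with depth in every group, from 27.8% to 69.6% and from 16.9% to 79.5% over no pseudogene.

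Where peaks recurred, their strength was similar. The 190 pairs of lncRNA exon peaks that were each other's largest overlap had a rank correlation of fold of 0.750, beside 0.665 over the 12401 pairs of all peaks. It was 0.691 over the 98 pairs on a pseudogene and 0.781 over the 92 others. These are descriptions across peaks of 2 libraries, and peaks within one gene or on copies of one sequence are not independent. The summits were within 50 bp in 108 pairs (56.8%), at a median distance of 31 bp. The fold was larger in replicate 2 in 120 of the 190 (63.2%), with a median ratio of 1.11, and in 57.6% of the pairs of all peaks, with a median ratio of 1.05.

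**Figure D4:**
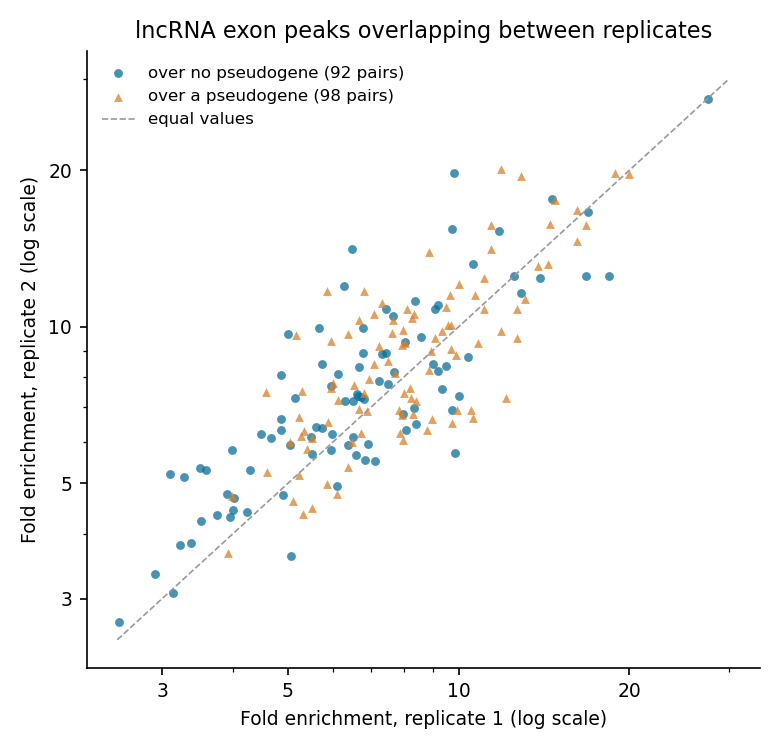
Fold enrichment in replicate 1 against replicate 2 (both log scales) for the 190 pairs of lncRNA exon peaks, 98 over a pseudogene (triangles) and 92 over none (circles); the dashed line marks equal values. The pair at the top right is ENSG00000289901 with 27.5 and 27.4, and 120 pairs lie above the line.

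By gene, 156 of 366 lncRNA genes (42.6%) had a peak in both lists, which is 61.9% of the replicate 1 genes and 57.8% of the replicate 2 genes. The same share was not counted for other genes with peaks. For 144 of the 156, peaks assigned to the gene in each list formed an overlapping pair. Of the 156, 84 had a peak over a pseudogene, and 48 had every peak off pseudogenes and on a single-copy summit. A single peak was the rule, with 190 genes of replicate 1 and 210 of replicate 2 carrying 1. Chromosome 17 held 12.8% and 10.9% of the peaks and chromosome 7 10.3% and 11.9%, beside 6.22% and 6.72% and 5.10% and 5.31% of all peaks.

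Peaks free of pseudogenes and of repeated summits were examined apart, again with their values known. They numbered 140 in replicate 1 and 152 in replicate 2, with median folds of 5.99 and 6.41. Apart from ENSG00000289901 and HCG14 above, the pair ranked next by the lower percentile was ENSG00000286171 on chromosome 7, with 11.8 and 15.3 fold on 18 and 30 reads and its summit ahead of the gene start. ENSG00000290032 on chromosome 6 followed closely, with 18.4 and 12.5 fold on 62 and 21 reads, 424 bp from the histone gene H4C9. ENSG00000265091 had 16.8 and 12.5 fold on 34 and 20 reads. CHASERR, a conserved RNA next to the chromatin remodeller gene CHD2, had folds of 12.5 and 12.5 with 21 and 25 reads, inside an exon and without a single 31-mer in a coding transcript. ENSG00000265091 held 5.56% of 31-mers of RPL41, and ENSG00000240040 16.5% of those of MALL, so a single-copy summit did not always mean a peak of unique sequence. MIR663AHG had 12.9 and 11.6 fold over a background of 5.36 and 7.38 reads. SNHG6 on chromosome 8 had 8.38 and 11.2.

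The rule asks for a lncRNA exon under each peak, which favours summits inside exons, and no comparison share was counted. The summit lay in a lncRNA exon for 249 peaks (69.4%, 64.4 to 73.9) in replicate 1 and 255 (67.6%, 62.8 to 72.2) in replicate 2. The next largest class was an intron just upstream of the nearest exon, with 64 and 68 peaks, against 17 and 18 just downstream of one. Another 24 and 31 summits lay before the gene start, and 5 and 5 past its end. The median share of a peak that was exonic was 76.6% and 71.3%. The rule removed every peak over a coding span, so distance from coding genes is partly set by it. Of the kept peaks, 275 (76.6%) and 291 (77.2%) lay farther than 10000 bp from any protein-coding gene. Another 17 and 19 lay within 1000 bp, of which 13 and 15 were divergent to it. These distances were not counted over other peaks.

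Along the spliced canonical transcript, summits of the set thinned toward the 3′ end, and positions on coding transcripts were not counted for comparison. Of the 249 and 255 exonic summits, 161 and 167 lay inside an exon of that transcript, and only these were placed. Of these, 51 (31.7%) and 67 (40.1%) were in the first 25% of its length, and 22 (13.7%) and 22 (13.2%) in the last 25%. The median position was 0.388 and 0.343 of the length, in transcripts of a median 2553 and 2525 nt. Within 200 nt of the 5′ end there were 21 and 36 summits, and within 200 nt of the 3′ end 5 and 9. The median distance to the 5′ end was 832 and 629 nt, and to the 3′ end 1437 and 1483 nt. The 5′ and 3′ ends are those of the annotation, and their use in OE-19 cells was not measured.

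**Figure D5:**
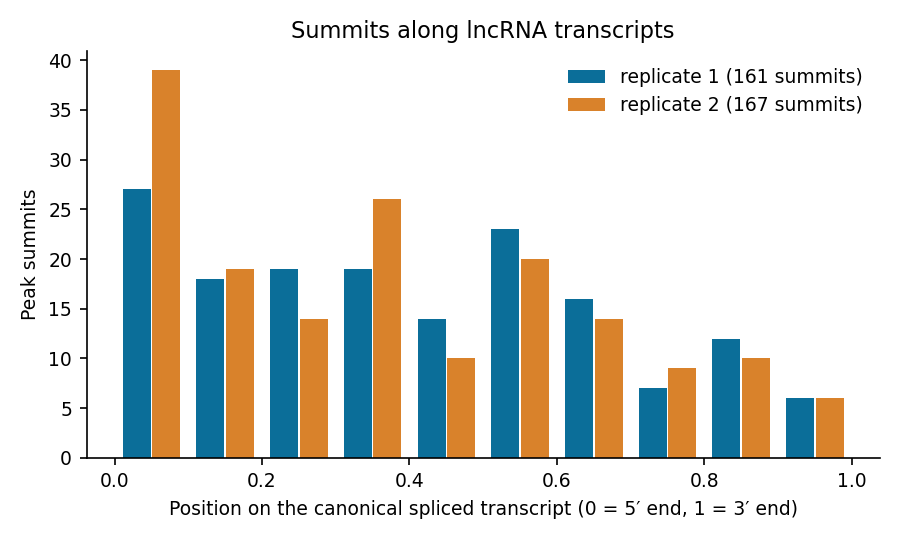
Number of summits by 10 equal bins of the canonical spliced lncRNA transcript, from the 5′ end (0) to the 3′ end (1), for replicate 1 (161 summits) and replicate 2 (167). The first bin is the fullest with 27 and 39 summits, and the last holds 6 and 6.

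Short motifs linked to m6A and to IGF2BP binding were counted, and no difference was tested. In the set as a whole, the counting intervals held the share over all peaks for all 3 motifs and both replicates. GGAC was on the gene strand within 50 nt of the summit in 98 of 359 lncRNA exon peaks (27.3%, 22.9 to 32.1) in replicate 1 and 131 of 377 (34.7%, 30.1 to 39.7) in replicate 2, against 29.1% and 32.0% of all peaks in a gene. TGGAC, which contains GGAC, was in 34 (9.47%, 6.86 to 12.9) and 36 (9.55%, 6.98 to 12.9), against 10.1% and 10.2%. CACA was in 147 (40.9%, 36 to 46.1) and 140 (37.1%, 32.4 to 42.1), against 37.2% and 34.2%. This did not hold in every part of the set. In peaks off pseudogenes with a single-copy summit, GGAC was in 25% (18.6 to 32.8) in replicate 1 and 40.1% (32.7 to 48.1) in replicate 2. The replicate 2 interval lay above the 32.0% of all peaks. In peaks over no pseudogene, CACA was in 46.5% (39.7 to 53.4) in replicate 1, above the 37.2% of all peaks. In replicate 2 it was in 37.7% (31.4 to 44.5), an interval that held the 34.2%. A match is a run of letters, and methylation was not measured in these files.

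GGAC was counted among the pairs of highest fold. It was in both lists' windows for 1 of the 10 highest pairs, ENSG00000253238, and in either for 2, against 43 of all 190 pairs (22.6%) with it in both. The median GC content of the same windows was 51.5% in replicate 1 and 56.4% in replicate 2, beside 49.5% and 56.4% over all peaks. GC and GGAC were both higher in replicate 2 over all peaks as well as in the set. The GGAC shares were 29.1% and 32.0% over all peaks and lay farther apart in the set, at 27.3% and 34.7%. The cause was not tested.

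Of 114 lncRNA symbols on 6 lists, 106 were lncRNA genes in the annotation. Peaks of the set were found in both replicates for 9 of them, in 1 replicate for 13, and in neither for the rest, of which 32 had only exon peaks that the rule removes and 52 had none. Of all 18866 annotated lncRNA genes, 156 had peaks of the set in both replicates and 366 in either. No difference between the lists and all genes was tested. The 9 were GAS5, SNHG6 and SNHG16 among snoRNA hosts, MIR181A1HG among miRNA hosts, MALAT1 and NEAT1 among nuclear RNAs, NORAD among cytoplasmic RNAs, and CASC19 and LINC00511 among those of gut and epithelial tumours. MIR181A1HG had 1 peak in each list, with folds of 5.38 and 7.62, and these did not overlap. SNHG16 had 9.86 and 5.73 with 34 and 28 reads.

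Of the 24 annotated genes on the gut and epithelial list, 2 had peaks of the set in both replicates and 4 in 1. Of the 8 annotated genes on the oncofetal and IGF2BP-linked list, 1 had a peak of the set, in 1 replicate. That gene was H19, an imprinted fetal RNA made next to IGF2, with a fold of 3.59 and 19 reads in replicate 1. CASC19 on chromosome 8 had 3 and 2 peaks, with folds of 4.49 to 5.67 on 58 to 77 reads in replicate 1 and of 6.10 and 6.23 on 18 and 53 reads in replicate 2. UCA1, first described in bladder carcinoma, had 9.40 with 20 reads in replicate 2, and PVT1, beside MYC, 6.30 with 9 reads in replicate 2. Being in the set in 1 replicate does not mean that the other list had no exon peak on the gene: H19 had 1 exon peak in replicate 2 and UCA1 1 in replicate 1, both of the kind the rule removes. PVT1 had no exon peak in replicate 1.

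The rule itself hid most snoRNA hosts. Of the 30 annotated host genes on that list, 20 had exon peaks only of the removed kind, which also touched a small RNA gene or the span of a coding gene. SNHG1 and SNHG12 had 3 exon peaks in each replicate, SNHG29 3 and 4, and ZFAS1 2 and 2, none of them in the set. HOTAIR had 1 such peak in replicate 1 and KCNQ1OT1 1 in replicate 2. The 359 and 377 peaks therefore describe lncRNA exons away from coding and small RNA genes, not lncRNA binding as a whole.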

How the data were processed

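The files are IGF2BP3 LACE-seq peak lists of OE-19 replicates 1 and 2, a single group, and both lists entered every result. The study's methods name Bowtie, after removal of reads matching pre-rRNA, and Piranha, whereas the submitters' processing notes name fastp, HISAT2, MACS2 and hg38. The layout and values of the deposited files are those of MACS2 narrowPeak, so which aligner made them is not settled, and an aligner that keeps reads at several positions can place peaks on copies. Peaks were called per replicate and have no strand.

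The deposited positions are starts, ends and summits in bp of hg38, given here 1-based. The deposited fold enrichment is a ratio of summit to local background, and the authors' p-value and q-value are deposited as −log10, with a lowest −log10 q of 2.18 and 2.15. The deposited score column follows the q-value and was not used.

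Genes, exons and types came from GENCODE 44. The 46 and 36 peaks on scaffolds without annotation could not be members. Where several lncRNA genes were overlapped (32 and 51 peaks), 1 was assigned. Reads at the summit are the whole number that gives both the deposited fold and p-value under a Poisson distribution within 0.002 in −log10 p. Such a number was found for all peaks and was the only one for 358 of 359 and 372 of 377 members, the closest being taken otherwise. Local background is the value that number implies. The 31-mers were counted in hg38 and in GENCODE protein-coding transcripts, exactly and on either strand. Motifs GGAC, TGGAC and CACA were sought on the gene strand within 50 nt of the summit. Pairs are peaks that are each other's largest overlap. The steps for overlap, intervals and pileups were tested on simulated data. Python 3.11.15, numpy 2.4.6, pandas 2.3.3, scipy 1.17.1 and matplotlib 3.10.9 were used.

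Genes were named as the 10 pairs with the highest lower percentile of fold, the 10 genes with most peaks (with the 4 more tied at 7 peaks, added after their values were seen) and the genes of 6 lists with peaks. The members and lists were chosen with earlier results of these data known. No test was run, as there is 1 group without a control. Wilson intervals at 95% cover counting error only, and PCR reads are not independent molecules. Alternatives were stricter q, other overlap rules, leaving out pseudogene, repeated, mRNA-like or gene-near peaks, exonic summits only, other windows and strands, the longest transcript, and each replicate alone.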

Additional observations from a re-analysis of the deposited data

How the results depend on the processing

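Values here are means of the replicates unless said otherwise. Of 89 alternative values over 10 results, 55 moved by less than the spread between replicates, or by less than 1.5 times for counts and 0.05 for the rank correlation, and 34 moved by more. Of the 89, 16 were values of a single replicate, which with 2 replicates lie within that spread by arithmetic. Keeping exonic summits only also left the relative position at 0.366 by construction. The 55 therefore overstate how stable the results were. The cause of the moves was not tested. Without peaks over a pseudogene or rRNA gene, the 368 peaks fell to 202, recurrence from 55.1% to 49.2%, the median fold from 6.78 to 6.35 and genes in both lists from 156 to 85, while exonic summits went from 68.5% to 75%, TGGAC from 9.51% to 9.13% and CACA from 39.0% to 42.1%. Without repeated summits the values were 212 peaks, 53.0%, 6.50, 89 genes, 71.9%, 9.21% and 42.3%, and the rank correlation rose from 0.750 to 0.800. Without peaks sharing at least 20% of 31-mers with 1 mRNA, an alternative chosen after the data were seen, recurrence was 50.3%, the median fold 6.39, TGGAC 8.68% and CACA 42.4%. With the summit inside a lncRNA exon, recurrence was 57.0%, the rank correlation 0.809 and TGGAC 11.3%. With summits within 50 bp in place of overlap, recurrence was 30.7%. GGAC went from 31% to 18.3% within 25 nt of the summit, 49.1% within 100 nt and 55.4% on either strand, TGGAC to 5.72%, 16.8% and 19.2%, and CACA to 25.2%, 61.5% and 63.1%. TGGAC was 9.33% at a −log10 q of at least 5 and 8.86% without peaks within 1000 bp of a coding gene, and its spread between replicates was only 0.0554. Replicates 1 and 2 alone gave 359 and 377 peaks, 56.3% and 53.8% recurrence, a median fold of 6.62 and 6.94, 69.4% and 67.6% exonic summits, 9.47% and 9.55% TGGAC and 40.9% and 37.1% CACA. No paired analysis was possible because the 2 samples form a single group. With 2 libraries, no control and no library depth, peaks with few reads at the summit limit every count by list.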
